A study of Mus musculus with 9 samples.

Results

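YAP, TAZ and 8 of their known target genes were followed by RNA-Seq in regenerating mouse liver. The 10 genes were chosen by symbol: *Yap1* and *Wwtr1*, which encode YAP and TAZ, and the targets *Ctgf*, *Cyr61*, *Ankrd1*, *Amotl2*, *Nuak2*, *Lats2*, *Ajuba* and *Axl*. All 10 were among the 43346 genes of the deposited table, and all 10 passed the expression filter and were tested together with 15024 genes in all. Whole liver of WT mice, male, 12 weeks old and of the strain given as C57/BL6 in the labels and C57BL/6J in the methods, gave 9 libraries in 3 groups of 3 biological replicates. Baseline libraries came from the tissue removed at 70% hepatectomy in mice given vehicle (saline i.p.), and vehicle 40 h libraries from the remnant of vehicle-treated mice 40 h later. NSC 40 h libraries came from remnants of mice given NSC-87877 (NSC) i.p., with each dose at 7.5 mg/kg and 2 doses given daily. Per the labels, dosing in every group began 12 h before surgery. NSC is a small molecule inhibitor of the phosphatase SHP2 that is also known to act on the related SHP1. Resected tissue of NSC-treated mice was not analysed here. The 3 baseline libraries therefore served for both 40 h groups, and a change from baseline with NSC holds the effects of surgery and of the drug together. Per the methods, the median and left lateral lobes were resected. Lobe therefore also differs between baseline and 40 h libraries and cannot be told apart from time.

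YAP and TAZ are transcriptional coactivators with no DNA-binding domain of their own, and they reach their target genes through the TEAD factors. In the Hippo pathway, the kinases MST1 and MST2 activate LATS1 and LATS2, which phosphorylate YAP and TAZ on serine and keep them in the cytoplasm, and in the liver the pathway is known for its control of organ size. Several targets feed back on the pathway, and YAP and TAZ are regulated largely as proteins, so that RNA levels of *Yap1* and *Wwtr1* are not measures of their activity.

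Reads assigned to genes numbered 23997363 to 42887589 in the 9 libraries. The 8 hepatocyte markers summed to between 92683 and 129251 CPM (counts scaled to the TMM-normalised library size) in the 9 libraries. Most of this sum was *Alb*, named after its value was seen (75090 to 103421 CPM). Other markers of the list fell at 40 h, as given below. On the second principal component of all genes, which held 13.2% of the variance, NSC replicate 1 lay at -31.0, beside the vehicle 40 h libraries (-28.1 to -13.4) and apart from NSC replicates 2 and 3 (32.5 and 54.0). Without NSC replicate 1, 994 of 15390 tested genes were called between NSC and vehicle by edgeR, against 6 of 15024 with all libraries. In whole liver, fewer cells of a type and less RNA per cell cannot be told apart.

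Promoters of the genes were searched for the TEAD core motif, since TEAD factors are the route of YAP and TAZ to DNA. The motif was GGAATG, of 6 bases, or CATTCC where it lies on the opposite strand. RefSeq windows of GRCm38.p6, each from 250 bases before to 50 after an annotated transcription start, were matched for 8 of the 10 genes and not for *Ctgf* and *Nuak2*. All 8 held the motif at 1 or more starts, whereas 14.7% of 32851 windows and 16.6% of 27025 genes with a window did. Among 10 of the 15 other known YAP/TAZ target genes with a window, 2 held it. The 10 genes are standard targets or pathway members, so this describes them and is no test. *Ankrd1* and *Ajuba* held 2 copies each, and the other 6 genes held 1 copy at a start.

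The 250 bases before the start of *Cyr61* (GRCm38.p6, chr3:145649986-145650235, minus strand), *Ankrd1* (chr19:36119845-36120094, minus strand) and *Ajuba* (chr14:54577662-54577911, minus strand) are shown, with the motif in capitals. These are the target genes with a window that were called higher at 40 h in at least 1 comparison below. *Yap1* and *Wwtr1*, which encode the coactivators, were also called higher with NSC and are shown in short form after them.
Cyr61: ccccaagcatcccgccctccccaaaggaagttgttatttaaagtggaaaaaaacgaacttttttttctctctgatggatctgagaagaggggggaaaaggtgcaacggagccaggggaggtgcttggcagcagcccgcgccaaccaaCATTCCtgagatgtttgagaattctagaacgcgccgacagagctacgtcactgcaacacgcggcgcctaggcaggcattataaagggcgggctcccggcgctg
Ankrd1: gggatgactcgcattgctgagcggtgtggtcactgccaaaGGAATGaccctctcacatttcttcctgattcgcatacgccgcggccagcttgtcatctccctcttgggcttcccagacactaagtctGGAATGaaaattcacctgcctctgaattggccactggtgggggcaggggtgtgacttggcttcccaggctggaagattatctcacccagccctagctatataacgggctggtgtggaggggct
Ajuba: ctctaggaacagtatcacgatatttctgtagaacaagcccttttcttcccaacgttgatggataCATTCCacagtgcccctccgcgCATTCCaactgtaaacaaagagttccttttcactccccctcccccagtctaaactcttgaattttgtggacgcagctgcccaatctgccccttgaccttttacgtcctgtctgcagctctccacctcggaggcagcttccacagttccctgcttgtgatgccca

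In the other 5 genes the motif with 12 bases on either side is shown, for comparison of its surroundings. The windows lie at chr9:8004720-8004749 (minus strand) for *Yap1*, chr3:57576029-57576058 (minus strand) for *Wwtr1*, chr9:102717727-102717756 (plus strand) for *Amotl2*, chr14:57746102-57746131 (minus strand) for *Lats2* and chr7:25788949-25788978 (minus strand) for *Axl*.
Yap1: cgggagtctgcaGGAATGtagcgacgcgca
Wwtr1: ggtaaactcaaaGGAATGcagataggcgct
Amotl2: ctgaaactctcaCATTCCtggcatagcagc
Lats2: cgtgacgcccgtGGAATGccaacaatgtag
Axl: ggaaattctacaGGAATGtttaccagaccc

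Motifs lay from 233 bases before the start (*Axl*) to 5 bases after it (*Lats2*). In *Cyr61* the motif began 103 bases before the start, in *Amotl2* 65 and in *Yap1* 141. The copies of *Ankrd1* began at 210 and 123 bases, and those of *Ajuba* at 186 and 164. In *Cyr61*, *Amotl2* and *Ajuba* it stood on the opposite strand, and in the other 5 on the strand of the gene. *Wwtr1* had 2 annotated starts, 136 and 170 bases from the same copy, and the second start of *Lats2* had none within its window.

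**Figure D1:**
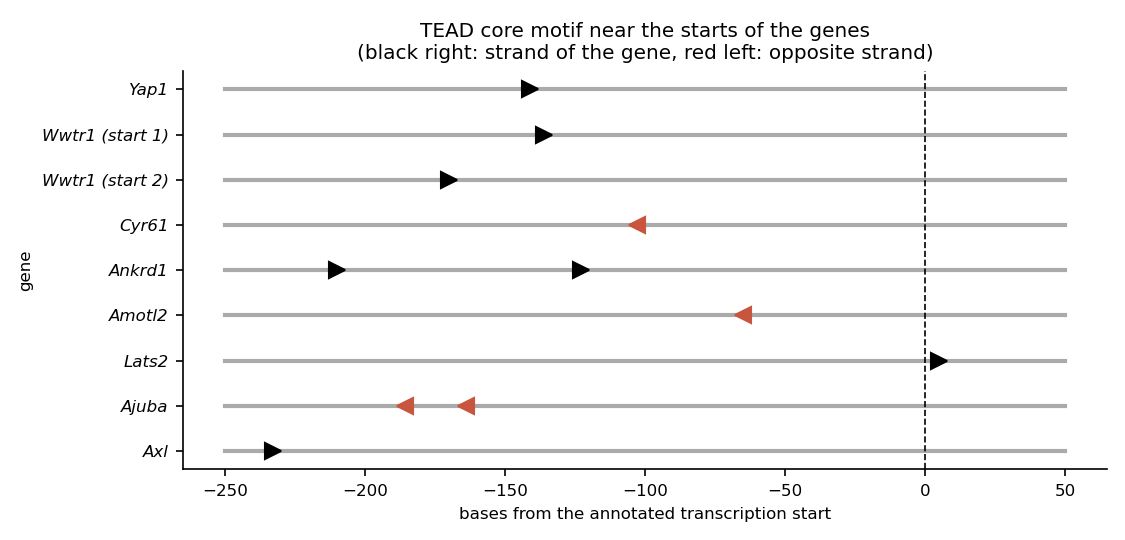
Position of the first base of each TEAD core motif (triangles) relative to the annotated transcription start (dashed line), in bases, for the 8 genes with a promoter window (grey bars, 250 bases before to 50 after the start). Every motif but that of *Lats2* lies before the start, from 233 to 65 bases away.

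At 40 h after hepatectomy, *Cyr61*, *Nuak2* and *Ajuba* had risen from baseline in vehicle-treated mice, by 6.11-fold, 1.88-fold and 2.10-fold. In NSC-treated mice *Nuak2* and *Ajuba* had risen by 2.03-fold and 2.28-fold, and *Yap1*, *Wwtr1* and *Ankrd1* were called as well, at 1.29-fold, 1.58-fold and 3.22-fold. No gene of the 10 was called lower in either comparison. No gene of the 10 was called different between NSC and vehicle at 40 h. *Ctgf* and *Amotl2* were not called in any comparison and their groups overlapped in all 3.

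*Yap1* (ENSMUSG00000053110, chromosome 9, 7931999 to 8004596 of GRCm38, as are the positions that follow) had 54.8, 53.4 and 56.4 CPM in the baseline replicates 1 to 3, 72.1, 63.5 and 64.3 CPM in the vehicle 40 h replicates, and 67.1, 79.9 and 64.7 CPM in the NSC 40 h replicates. All 6 livers at 40 h lay above all 3 baseline livers, and the treatments overlapped. The mean went from 54.9 ± 1.46 CPM (SD, n = 3) at baseline to 66.6 ± 4.75 with vehicle and 70.6 ± 8.15 with NSC (SD, n = 3 each). Relative to baseline, the log2 fold change was 0.28 in vehicle livers (standard error 0.13, edgeR adjusted p = 0.143) and 0.36 with NSC (standard error 0.13, edgeR adjusted p = 0.0498). The latter is close to the threshold and was kept in 2 of 9 fits with a library removed, with an adjusted p up to 0.189. Correction for the GC content of the genes gave it as 0.08 (edgeR adjusted p = 0.641), with a range of adjusted p over all alternatives of 0.0212 to 0.641.

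*Wwtr1* (ENSMUSG00000027803, chromosome 3, 57455649 to 57575910), the gene of the YAP paralog TAZ, had 10.6, 14.0 and 10.4 CPM at baseline, 16.4, 13.8 and 14.2 CPM with vehicle, and 21.6, 18.5 and 15.3 CPM with NSC. The NSC livers lay above every baseline liver, while vehicle replicate 2 lay just below baseline replicate 2. It rose by 0.66 on the log2 scale with NSC (standard error 0.18, edgeR adjusted p = 0.0135), and the difference with vehicle was 0.34 (standard error 0.18, edgeR adjusted p = 0.184). The rise with NSC was not called without baseline replicate 1 (0.60, edgeR adjusted p = 0.0562) or baseline replicate 3 (0.59, edgeR adjusted p = 0.0622), nor with correction for GC content (0.31, edgeR adjusted p = 0.194), in a range over all alternatives of 0.00672 to 0.194. *Yap1* and *Wwtr1* have GC contents of 45.2% and 43.9%, below the median of 49.7% over tested genes, and each is overlapped by a gene annotated on the opposite strand (*Gm20416* and *Gm16016*).

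*Cyr61* (ENSMUSG00000028195, chromosome 3, 145646971 to 145649985), a secreted matricellular protein, had 4.83, 3.02 and 3.79 CPM at baseline, 46.0, 17.9 and 7.08 CPM with vehicle, and 6.60, 15.3 and 15.1 CPM with NSC. All 6 livers at 40 h were above baseline, and the vehicle livers spanned a 6.50-fold range, set by vehicle replicate 1. It rose by 2.61 on the log2 scale with vehicle (standard error 0.68, edgeR adjusted p = 0.0298). Without vehicle replicate 1 the rise was 1.69 and still called (edgeR adjusted p = 0.0352). Without any 1 of the 3 baseline libraries it was 2.46 to 2.80 and not called (edgeR adjusted p = 0.0765 to 0.103), and the range over all alternatives was 0.00130 to 0.103. The call with vehicle was also lost in the fit of only the baseline and vehicle 40 h libraries, without the filter on low counts, and with a replicate term. With NSC the difference from baseline was 1.66 (standard error 0.67, edgeR adjusted p = 0.0936) although the groups did not overlap. DESeq2 and the fit of only the 6 libraries compared called it at 1.66 (adjusted p = 0.0460) and 1.67 (edgeR adjusted p = 0.00745), in a range of 0.00745 to 0.232.

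*Ctgf* (ENSMUSG00000019997, chromosome 10, 24595442 to 24598683), the second matricellular target and one often read as a measure of YAP activity, had 3.95, 9.37 and 4.52 CPM at baseline, 6.28, 1.74 and 3.39 CPM with vehicle, and 7.62, 2.61 and 4.77 CPM with NSC. Replicates of 1 group differed by 2.37-fold, 3.62-fold and 2.91-fold in these 3 groups, more than the group means of 5.95 ± 2.98, 3.80 ± 2.30 and 5.0 ± 2.51 CPM (SD, n = 3 each) differed from each other. Its log2 fold change was -0.64 with vehicle (standard error 0.54, edgeR adjusted p = 0.424) and -0.25 with NSC (standard error 0.53, edgeR adjusted p = 0.749) against baseline. Between the treatments it was 0.39, with a 95% interval from -0.81 to 1.60. The sign of the difference with NSC turned without baseline replicate 2 (0.24) or NSC replicate 2 (0.06), and that between treatments without NSC replicate 1 (-0.05). *Gm15270*, annotated on the opposite strand, overlaps 1667 bases of the gene, and whether the counting used strand is not given in the sources used here.

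*Cyr61* and *Ctgf* were also compared with each other per length, without a test. The FPKM of *Cyr61* over that of *Ctgf* in the same library was 1.73, 0.455 and 1.18 at baseline, 10.3, 14.5 and 2.94 with vehicle, and 1.22, 8.24 and 4.45 with NSC. Every vehicle 40 h ratio was above every baseline ratio, while NSC replicate 1 fell within the baseline range. The same ratio for *Yap1* over *Wwtr1* lay between 1.97 and 2.80 at baseline, 2.26 and 2.37 with vehicle, and 1.60 and 2.23 with NSC.

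*Ankrd1* (ENSMUSG00000024803, chromosome 19, 36111965 to 36119844), which encodes an ankyrin repeat protein best known from heart and skeletal muscle, was scarce, with 8 to 60 reads per library. It had 0.347, 0.244 and 0.330 CPM at baseline, 1.501, 0.337 and 0.443 CPM with vehicle, and 1.499, 0.645 and 0.821 CPM with NSC. NSC livers lay above every baseline liver, and vehicle replicate 2 fell within the baseline range. With NSC it rose by 1.69 on the log2 scale (standard error 0.60, edgeR adjusted p = 0.0456), and the difference with vehicle was 1.32 (standard error 0.60, edgeR adjusted p = 0.130). Without NSC replicate 1 the NSC value was 1.24 and not called (edgeR adjusted p = 0.147), and with a library removed it was called in 3 of 9 fits. The 6 striated muscle markers summed to at most 0.13 CPM in any library, and *Myh4* and *Mb* were at 0 in all 9.

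*Axl* (ENSMUSG00000002602, chromosome 7, 25757273 to 25788705), a receptor tyrosine kinase for GAS6, had 13.8, 12.3 and 9.86 CPM at baseline, 21.3, 19.6 and 12.7 CPM with vehicle, and 24.2, 15.1 and 14.1 CPM with NSC. Vehicle replicate 3 fell within the baseline range, and all NSC livers were above it. The log2 fold change was 0.58 with vehicle (edgeR adjusted p = 0.113) and 0.57 with NSC (edgeR adjusted p = 0.0956), each with a standard error of 0.25. Without NSC replicate 1 the vehicle difference was 0.58 and called (edgeR adjusted p = 0.0408), in a range over the alternatives of 0.0341 to 0.316.

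*Nuak2* (ENSMUSG00000009772, chromosome 1, 132316126 to 132333488), an AMPK-related kinase that acts on the actin cytoskeleton, had 5.81, 9.68 and 5.71 CPM at baseline, 10.7, 16.3 and 12.9 CPM with vehicle, and 10.8, 16.7 and 15.5 CPM with NSC. All 6 livers at 40 h were above all 3 baseline livers. It rose by 0.91 on the log2 scale with vehicle (standard error 0.25, edgeR adjusted p = 0.0209) and by 1.02 with NSC (standard error 0.25, edgeR adjusted p = 0.00840). The rise with NSC was called in all 9 fits that left out 1 library. That with vehicle was called in 5 of 9, and was 0.74 to 0.94 without baseline replicate 1 or 3 or vehicle replicate 2 or 3 (edgeR adjusted p = 0.0546 to 0.0870, in a range over the alternatives of 0.00402 to 0.0870).

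*Ajuba* (ENSMUSG00000022178, chromosome 14, 54567469 to 54577661), a LIM protein that binds LATS kinases and restrains them, had 3.32, 3.66 and 4.65 CPM at baseline, 11.1, 7.12 and 6.09 CPM with vehicle, and 8.99, 10.1 and 7.43 CPM with NSC. The lowest liver at 40 h was above the highest baseline liver. It rose by 1.07 on the log2 scale with vehicle (standard error 0.25, edgeR adjusted p = 0.0101) and by 1.19 with NSC (standard error 0.25, edgeR adjusted p = 0.00396). The rise with NSC was called in each of 9 fits without 1 library, and that with vehicle in 8 of 9. Without vehicle replicate 1 it was 0.77 (edgeR adjusted p = 0.0541, the highest over the alternatives, the lowest being 0.00110).

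*Lats2* (ENSMUSG00000021959, chromosome 14, 57642077 to 57758388), the Hippo kinase that is itself a YAP target, had 8.68, 11.0 and 10.8 CPM at baseline, 12.6, 11.8 and 12.5 CPM with vehicle, and 14.6, 13.1 and 10.8 CPM with NSC. Vehicle livers lay above baseline, whereas NSC replicate 3 did not. The log2 fold change was 0.27 with vehicle (edgeR adjusted p = 0.253) and 0.34 with NSC (edgeR adjusted p = 0.131), each with a standard error of 0.17. With correction for GC content the NSC value was 0.48 and called (edgeR adjusted p = 0.0418, in a range of 0.0418 to 0.367). Its count is uncertain, since *Gm49361* and *Xpo4* overlap 104027 and 23354 bases of the locus on the same strand.

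*Amotl2* (ENSMUSG00000032531, chromosome 9, 102716672 to 102733418), an angiomotin that binds YAP and holds it at cell junctions, had 13.0, 20.02 and 16.6 CPM at baseline, 16.5, 15.4 and 12.0 CPM with vehicle, and 15.1, 12.9 and 14.0 CPM with NSC. All 3 groups overlapped. The log2 fold change was -0.18 with vehicle (edgeR adjusted p = 0.527) and -0.24 with NSC (edgeR adjusted p = 0.332), each with a standard error of 0.19, and the sign with NSC turned with correction for GC content (0.12).

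**Figure D2:**
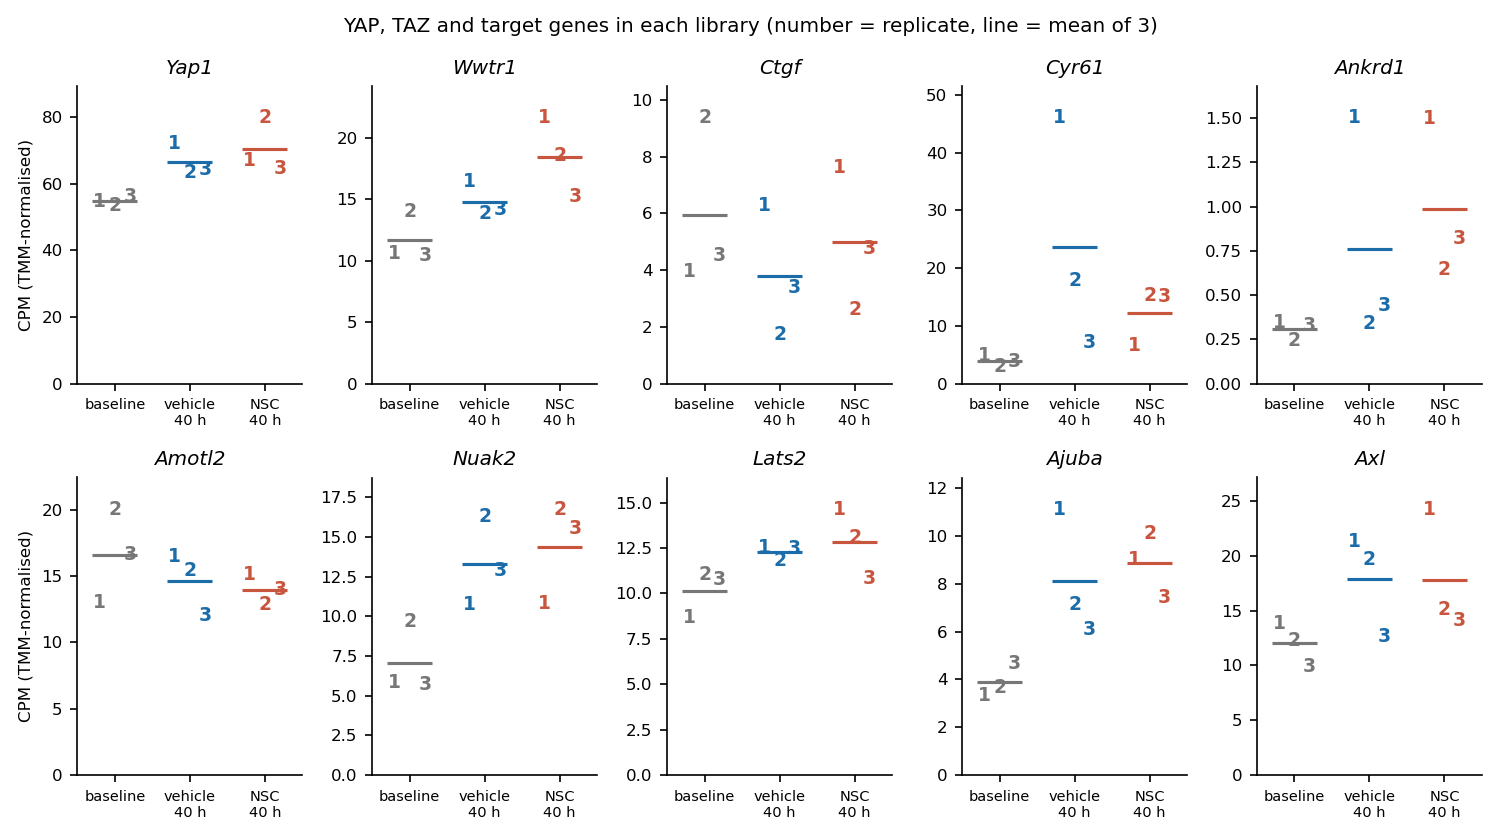
TMM-normalised CPM (linear axis from 0) of the 10 genes in each library, with the replicate number as the symbol and a line at the mean of 3. *Yap1*, *Cyr61*, *Nuak2* and *Ajuba* lie above baseline in all 6 livers at 40 h, *Cyr61* spans 7.08 to 46.0 CPM within the vehicle group, and *Ctgf* and *Amotl2* overlap in all groups.

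In vehicle-treated mice, the comparison with baseline asks how these genes stand in the course of regeneration. A gene was called at a Benjamini-Hochberg adjusted p under 0.05 over all 15024 genes. Of the 10 genes, 3 were called and all 3 had risen, where 23.7% of all tested genes were called and 12.7% were called higher. Without baseline replicate 1 or 3 the count was 1 (*Ajuba*), and without NSC replicate 1 it was 4, with *Axl* added. Over all genes these fits called 2329 of 15281, 2285 of 15398 and 4538 of 15390. Requiring also an absolute log2 fold change over 1.5 left *Cyr61* alone, against 7.22% of all genes. The livers of the groups did not overlap for 5 of the 10 genes, all higher at 40 h, beside 46.3% of all genes in either direction. The median log2 fold change of the 10 genes was 0.46, and that of all tested genes 0.01.

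In NSC-treated mice, 5 of the 10 genes were called, all higher, where 34.7% of all genes were called and 18.2% were called higher. With the fold threshold *Ankrd1* was left, against 8.13% of all genes. Groups did not overlap for 7 of the 10, beside 47.1% of all genes, and the median log2 fold change was 0.62, against 0.01 over all genes. Without NSC replicate 1, 4 of the 10 genes were called (*Ajuba*, *Nuak2*, *Wwtr1* and *Yap1*), where 5186 of 15390 genes were called. With 1 baseline library left out the count was 2 or 3, and *Nuak2* and *Ajuba* were among them each time. Over all genes these fits called 3604 to 4393, of 15281 to 15398 tested. With correction for GC content 4 were called, *Nuak2* and *Ajuba* again and in addition *Axl* (0.79, edgeR adjusted p = 0.0387, in a range of 0.0280 to 0.344) and *Lats2*. That more genes were called with NSC than with vehicle is no test of a difference between them.

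The direct comparison of NSC with vehicle at 40 h asks whether the drug changed these genes. None of the 10 was called by edgeR or by DESeq2, and none had an unadjusted p under 0.05 by either tool. Over all genes edgeR called 0.0399% (6 genes), and 0.02% (3 genes) with the fold threshold, while DESeq2 called 725 genes of the 24325 in its fit. Leaving out vehicle replicate 3 raised the edgeR count over all genes to 111 and leaving out NSC replicate 1 to 994, and 0 of the 10 genes were called in either fit. No gene of the 10 had groups that did not overlap, beside 22.5% of all genes. The median log2 fold change of the 10 genes was 0.10, with all genes at 0.02. Single values lay between -0.95 (*Cyr61*, 95% interval -2.44 to 0.54, edgeR adjusted p = 0.446) and 0.39 (*Ctgf*). For *Cyr61* the value was -0.03 without vehicle replicate 1, in a range of edgeR adjusted p over the alternatives of 0.136 to 0.984.

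The intervals state which differences between the treatments these livers leave room for. They were narrow for *Yap1* (0.08, 95% interval -0.20 to 0.37), *Lats2* (0.07, -0.29 to 0.43) and *Amotl2* (-0.07, -0.47 to 0.34). *Wwtr1* had a difference of 0.32 (-0.07 to 0.71). *Nuak2* was at 0.11 (-0.43 to 0.65), *Ajuba* at 0.12 (-0.41 to 0.66) and *Axl* at -0.01 (-0.54 to 0.53). For *Ankrd1*, at 0.37, the interval ran from -0.82 to 1.55. A 2-fold difference, 1 on the log2 scale, lies outside the interval of 7 of these genes and inside those of *Ctgf*, *Cyr61* and *Ankrd1*.

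**Figure D3:**
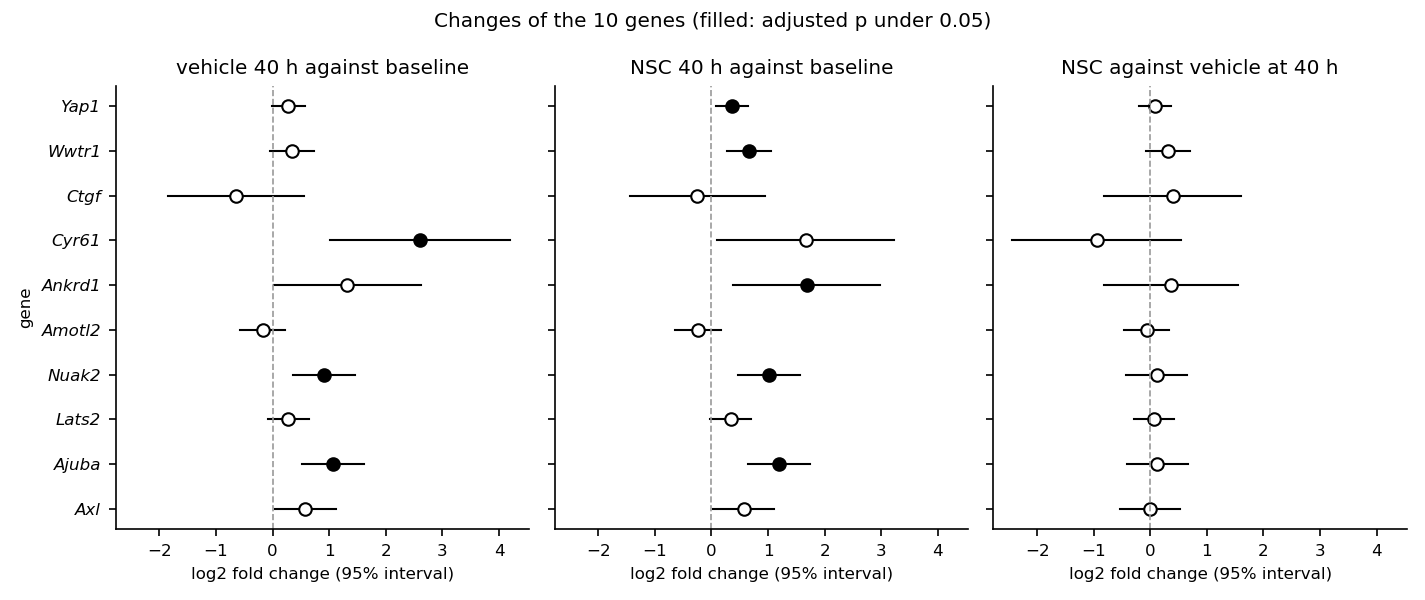
Log2 fold change (circles) with 95% interval (lines) of the 10 genes in the 3 comparisons, with called genes filled. Filled circles number 3 with vehicle and 5 with NSC, all right of 0, and none is filled between the treatments, where *Ctgf*, *Cyr61* and *Ankrd1* have the widest lines.

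Levels of different genes were compared only per length, as FPKM. *Yap1* led at baseline with 5.73 ± 0.177 FPKM (SD, n = 3), apart from *Amotl2* at 2.54 ± 0.541. From *Amotl2* down to *Ajuba* (1.07 ± 0.198) each gene overlapped the next in this order, namely *Wwtr1*, *Axl*, *Ctgf*, *Cyr61*, *Nuak2* and *Lats2*, and *Ankrd1* was lowest at 0.168 ± 0.0301, apart from the rest. With vehicle at 40 h *Cyr61* had the highest mean, 11.8 ± 10.8 FPKM, but overlapped *Yap1* at 7.04 ± 1.06. With NSC *Yap1* led at 8.09 ± 0.696 and overlapped *Cyr61* at 6.40 ± 2.44. *Ankrd1* was lowest in every group.

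The machinery upstream was read from lists of known pathway genes. Of the 6 core kinases and adaptors, 0 were called with vehicle by edgeR (1 at an unadjusted p under 0.05) or DESeq2, and 3 rose with NSC. These were *Mob1a* (0.71), *Stk3* (0.66), which encodes MST2, and *Sav1* (0.53), with edgeR adjusted p = 0.00715, 0.0250 and 0.0407, where 18.2% of all genes were called higher. None of the 3 was called with GC correction, *Mob1a* and *Stk3* were called without NSC replicate 1, and *Mob1a* alone without baseline replicate 2 or 3 or NSC replicate 2. *Lats1*, the sister kinase of *Lats2*, lay at 25.9 to 27.8 CPM at baseline, 26.7 to 29.4 with vehicle and 29.2 to 35.8 with NSC and was not called. Among 17 upstream regulators, 2 rose and 3 fell with vehicle, and 3 rose and 3 fell with NSC, beside 23.7% and 34.7% of all genes called. With vehicle *Taok2* alone was called without baseline replicate 3 or vehicle replicate 3, where 2285 of 15398 and 2519 of 15461 genes were called. With NSC 10 of the 17 were called without NSC replicate 1, in a fit that called 5186 of 15390 genes. *Taok2*, a kinase that activates MST kinases, fell by 0.65 and by 1.08 on the log2 scale (edgeR adjusted p = 0.00319 and 0.000128), and *Taok3* fell by 0.70 and 0.86. *Map4k4*, which acts on LATS kinases in parallel to MST, rose by 1.503 and 1.84, and *Rassf1* by 0.55 and 0.66. Between the treatments edgeR called none of these core and upstream genes, with 1 and 3 at an unadjusted p under 0.05. The share of all genes under that unadjusted p is not given here. DESeq2 called *Taok2* alone, where it called 725 of 24325 genes. With NSC replicate 1 left out, edgeR called *Ptpn14* among them, named after its value was seen.

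Of the 8 TEAD factors and VGLL cofactors 6 were tested, since *Vgll1* and *Vgll2* had no read in any library. *Vgll4*, which competes with YAP for TEAD factors, fell by 0.66 with vehicle and by 0.74 with NSC (edgeR adjusted p = 0.0265 and 0.0105). The call with vehicle was lost without baseline replicate 2 or 3 or any 1 vehicle library, and that with NSC with GC correction. *Tead3* had 10.8, 10.8 and 12.7 CPM at baseline, 8.70, 11.4 and 8.56 with vehicle and 5.88, 6.25 and 6.26 with NSC. The NSC livers lay below all others, and it fell by 0.90 from baseline with NSC (edgeR adjusted p = 0.00249). Its difference between treatments was -0.64 (standard error 0.18, edgeR adjusted p = 0.103). DESeq2 called this difference, where it called 725 of 24325 genes, and edgeR did not. *Tead1*, *Tead2* and *Tead4* were not called, with differences from baseline of 0.60, 0.55 and 0.53 with vehicle and 0.38, 0.32 and 1.02 with NSC.

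SHP2 and SHP1 are encoded by *Ptpn11* and *Ptpn6*, and Src family kinases can phosphorylate YAP on tyrosine. *Ptpn11* lay at 70.1 to 82.8 CPM at baseline, 85.3 to 94.4 with vehicle and 76.4 to 93.8 with NSC, and was not called in any comparison. *Ptpn6* fell by 0.47 from baseline with NSC (edgeR adjusted p = 0.0229). *Yes1*, the kinase after which YAP was named, had 18.8, 17.1 and 16.4 CPM at baseline, 16.2, 14.0 and 19.9 with vehicle, and 27.0, 25.8 and 21.9 with NSC. It rose by 0.52 with NSC (edgeR adjusted p = 0.0267), and every NSC liver was above every vehicle liver. The difference between treatments of 0.58 was not called by edgeR (adjusted p = 0.111) and was called by DESeq2, which called 725 of 24325 genes. The calls of *Ptpn6* and *Yes1* with NSC were both lost with GC correction and without baseline replicate 3 or NSC replicate 2. That of *Yes1* was lost also without baseline replicate 2 or NSC replicate 1, and that of *Ptpn6* without NSC replicate 3 or with library size scaling. *Lck*, a kinase of T cells, fell by 2.03 with vehicle (edgeR adjusted p = 0.0139) at levels of 0.125 to 1.42 CPM, and was not called without baseline replicate 3 or vehicle replicate 1 or 3.

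A further 15 known YAP/TAZ target genes were listed, and 13 of them tested. With vehicle 1 rose and 1 fell, and with NSC 2 rose and 3 fell, beside 23.7% and 34.7% of all genes called. The counts without NSC replicate 1 were 4 with vehicle and 6 with NSC, where 4538 and 5186 of 15390 genes were called. With NSC they were 1 and 2 (*Igfbp3* each time) without baseline replicates 1 and 3, where 4111 of 15281 and 3604 of 15398 genes were called. *Ccdc80*, a matrix protein, rose by 1.77 and 1.20 on the log2 scale (edgeR adjusted p = 0.00325 and 0.0143), and *Igfbp3*, which binds insulin-like growth factors, fell by 1.44 and 1.26 (edgeR adjusted p = 0.000897 and 0.00120). *Asap1* and *Dock5* fell by 0.53 and 0.52 with NSC (edgeR adjusted p = 0.0235 and 0.0293). *Tgfb2*, named after its value was seen, rose by 1.72 with NSC (edgeR adjusted p = 0.0319) at under 1 CPM in every library. The median log2 fold change of the 13 was 0.39 with vehicle, 0.23 with NSC and -0.16 between the treatments, where none was called by edgeR or DESeq2 and 2 had an unadjusted p under 0.05. When NSC replicate 1 was left out, 4 of the list were called between the treatments by edgeR (*Arhgef17*, *Ccdc80*, *Myof* and *Ptpn14*, all but *Ccdc80* named after their values were seen), in the fit that called 994 genes.

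**Figure D4:**
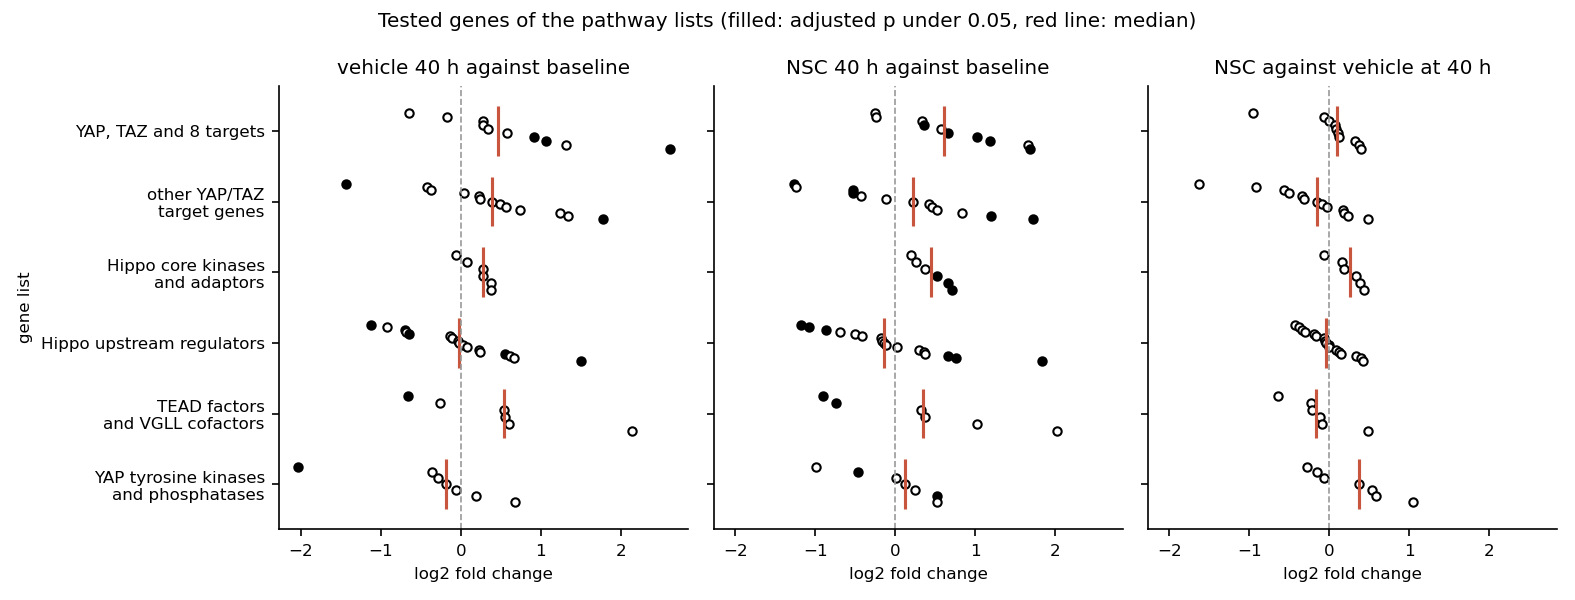
Log2 fold change of every tested gene of 6 lists (rows) in the 3 comparisons, with called genes filled and a red line at the median of the list. The 10 genes of the top row have filled circles right of 0 alone, the other 13 tested targets have them on either side, and no circle is filled between the treatments.

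Several targets are also expressed by non-parenchymal cells, and the markers of those cells moved at 40 h. Of the 10 stellate cell and myofibroblast markers 6 rose with vehicle and 3 with NSC, and the list summed to 210 to 250 CPM at baseline, 427 to 569 with vehicle and 268 to 517 with NSC, where none was at 0. The 6 mesothelial markers summed to 2.14 to 4.32 CPM at baseline, 25.0 to 30.5 with vehicle and 26.9, 15.5 and 1.13 with NSC replicates 1 to 3, with 4 and 2 of them called higher. Cholangiocyte markers had 4 and 3 of 6 tested genes higher, at a summed 50.6 to 55.9, 85.1 to 127 and 89.2 to 131 CPM. Of the other lists, 2 and 4 of 6 macrophage markers, 2 and 4 of 4 neutrophil markers and 6 and 6 of 6 proliferation markers rose with vehicle and NSC, while 2 and 1 of 6 sinusoidal endothelial markers and 3 and 5 of 8 hepatocyte markers fell. Beside these counts, 12.7% and 18.2% of all genes were called higher with vehicle and NSC, and 23.7% and 34.7% in either direction.

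Within both 40 h groups, replicate 1 had the highest *Wwtr1*, *Ctgf*, *Ankrd1*, *Amotl2*, *Lats2* and *Axl*, which is most of the 10 genes. The share of all genes with this order was not counted. Some margins were small, as for *Lats2* with vehicle, at 12.56 CPM in replicate 1 and 12.47 in replicate 3. The summed stellate cell and myofibroblast markers were also highest in replicate 1 of each group, at 569 and 517 CPM, where 5 of the 10 single markers were highest with vehicle and all 10 with NSC. NSC replicate 1 was highest as well in the sums of sinusoidal endothelial (213 CPM), macrophage (284), neutrophil (17.9) and mesothelial markers (26.9). Vehicle replicate 1 was highest in that of cholangiocyte markers (127). For each of these lists another replicate was highest in the other 40 h group. The part of cell composition in the levels of the target genes was not tested. Immediate early genes, which like *Cyr61* respond within minutes to growth factors, had 5 of 9 members called higher with vehicle and 1 with NSC. Over all genes 12.7% and 18.2% were called higher. The list summed to 152 to 307 CPM at baseline, 478 to 805 with vehicle and 132 to 233 with NSC. All 9 had a log2 fold change below 0 between NSC and vehicle, with 1 called (*Egr2*, -3.33, edgeR adjusted p = 0.0470), where 0.0399% of all genes were called. The vehicle livers lay above the NSC livers in the sum of the list. *Cyr61* overlapped between the treatments, and vehicle replicate 3 was lowest of its group in both *Cyr61* and the sum.

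**Figure D5:**
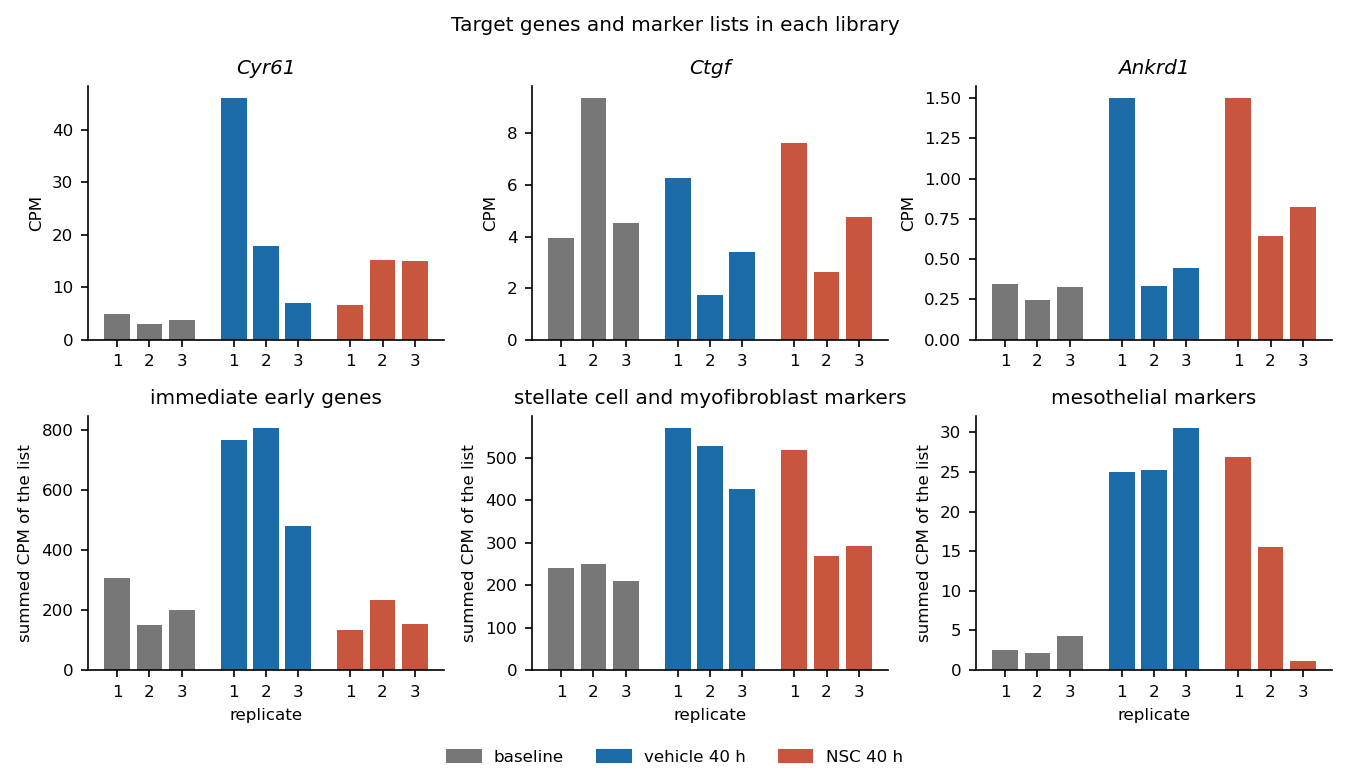
CPM of 3 target genes (top) and summed CPM of 3 marker lists (bottom) in each library (bars, linear axes from 0), coloured by group. Vehicle replicate 1 has the highest *Cyr61* (46.0 CPM), immediate early genes are above 478 CPM with vehicle alone, and mesothelial markers are at 1.13 CPM in NSC replicate 3.

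The genes most like *Ctgf* and *Nuak2* over the 9 libraries were sought by the root mean square (RMS) difference of log2 CPM, each centred on its own mean. For *Ctgf* these were *Gm26588* (0.24), *Espn* (0.37) and *Gm15361* (0.38), where *Ctgf* itself varied by 0.71 and the median gene differed by 0.80. *Gm26588* had 3.38, 6.53 and 3.33 CPM at baseline, 3.00, 0.958 and 2.14 with vehicle and 4.20, 1.63 and 2.54 with NSC, so that like *Ctgf* it was highest in baseline replicate 2 and lowest in vehicle replicate 2. *Espn* and *Gm15361* stayed under 1 CPM in all libraries. For *Nuak2* the genes were *Utp23* (0.13), *Tmem138* (0.14) and *Gm10478* (0.15), against 0.55 for *Nuak2* itself and a median of 0.66. Among the other 9 genes of the set, *Amotl2* was nearest to *Ctgf* (0.61) and *Wwtr1* nearest to *Nuak2* (0.41), while *Ctgf* and *Cyr61* differed by 1.56.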

How the data were processed

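RNA-Seq libraries (stranded mRNA kit) of whole liver were made and aligned by the authors with STAR 2.6.1 and counted per gene with featureCounts of Subread 1.5.1, per the labels. The deposited table holds raw counts and the FPKM the authors computed from them and from gene length. FPKM recomputed from the counts differed by at most 4.96e-10 of a value. The labels name the human build hg38, while the gene identifiers are those of mouse. Coordinates are printed as deposited and the build, GRCm38, was inferred: 78.8% of genes matched to GENCODE M21 and 6 of the 10 genes have the same start and end there, and those of *Cyr61*, *Ankrd1*, *Lats2* and *Ajuba* differ. Whether counting used strand is not given in the sources used here.

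Genes were tested in edgeR 4.0.16 (R 4.3.3), with TMM factors, filterByExpr and robust quasi-likelihood dispersions, all 9 libraries being fitted together, after a check of the code on simulated counts. P-values are two-sided and Benjamini-Hochberg adjusted over 15024 genes. CPM are TMM-normalised, and a count of 3 corresponds to 0.070 to 0.125 CPM before the TMM factors are applied. Intervals are 95% intervals of the log2 fold change. With 3 libraries against 3, an exact permutation test of a single gene could not give a p under 0.1. Labels and methods describe the replicates as biological, and no pair of replicates was alike within sampling noise. Alternatives were DESeq2 1.42.0, RLE or library size scaling, other filters, a fit of only the groups compared, a replicate term, GC correction and leaving out each library. Members and lists were chosen with earlier results of these data known, so counts over them are descriptions. From each further list the genes with the 4 smallest p-values could be named, and *Ptpn11*, *Ptpn6*, *Lats1* and the TEAD genes always. Promoter windows are from RefSeq.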

Additional observations from a re-analysis of the deposited data

How the results depend on the processing

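Requiring also an absolute log2 fold change over 1.5 left 1 of the 10 genes with vehicle and 1 with NSC against baseline. Leaving out each library in turn gave 1 to 4 called genes with vehicle and 2 to 5 with NSC, with the lowest counts without baseline libraries, and 0 each time between the treatments. Over the 30 log2 fold changes, settings other than left-out libraries kept direction and call in 213 cases, lost the call in 10, gained it in 6 and turned the sign in 8. With 1 library left out these were 230, 23, 3 and 14. The 8 turns were in values that were not called. With GC correction they were *Yap1* (-0.10), *Amotl2* (0.22) and *Axl* (0.20) between the treatments and *Amotl2* with NSC against baseline (0.12). With library size alone they were *Amotl2* (0.060) and *Axl* (0.13) between the treatments, and *Axl* turned also with DESeq2 (0.0070) and RLE factors (0.0068). The cause was not tested. With 1 library left out, the NSC to vehicle difference ran from -0.016 to 0.14 for *Yap1*, -0.054 to 0.97 for *Ctgf*, -0.082 to 1.35 for *Ankrd1*, -0.19 to 0.023 for *Amotl2*, -0.028 to 0.28 for *Nuak2*, -0.040 to 0.17 for *Lats2*, -0.044 to 0.42 for *Ajuba* and -0.30 to 0.14 for *Axl*, and that of *Ctgf* with NSC against baseline from -0.69 to 0.24. Scaling by library size alone put the median of all genes at 0.15 with NSC against baseline and at 0.14 between the treatments. Over all genes, NSC against vehicle gave 6 called genes, against 725 by DESeq2, 221 without the filter on low counts, 0 with GC correction, 11 with the replicate block, 1 with library size alone and 0 to 994 with 1 library left out, with 994 without NSC replicate 1 and 111 without vehicle replicate 3. *Ankrd1* did not reach 10 counts in every library and was not tested under that filter.

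Baseline and 40 h libraries share replicate numbers, but whether 1 number stands for 1 mouse is not given in the sources used here. Deviations of vehicle 40 h and baseline libraries of 1 number correlated at 0.08, 0.07 and -0.05. NSC-treated mice cannot be those of the baseline or vehicle libraries. Their same-number correlations of 0.02 to 0.13 therefore say nothing of pairing by mouse. The numbers were not taken as pairs. With the replicate block 3, 5 and 0 of the 10 genes were called in the 3 comparisons, with *Axl* in place of *Cyr61* with vehicle and in place of *Yap1* with NSC. Low counts limit *Ankrd1*, with 8 to 60 reads.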
